A study of Mus musculus with 58 samples.

Results

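Lithium was compared directly with fluoxetine in prefrontal cortex of C57BL/6J mice labelled as heterozygous for Kmt5b, here HT. The comparison used 20 of the 58 libraries of the study, 10 of HT mice given lithium and 10 of HT mice given fluoxetine, each with 5 females and 5 males, and no library of vehicle-treated mice. Kmt5b heterozygosity and age were common to both groups. The drugs were given for 3 weeks, from postnatal day 3 to day 24, and came to the pups with the mother's milk, so the dose each pup took is not known. Cortex was taken on postnatal day 25. For single genes the levels in 10 HT libraries of vehicle-treated mice, and the same drug comparison in wild-type mice (WT: 10 libraries with fluoxetine and 8 with lithium), are set beside the HT values. Of 18088 genes in the table, 16744 had a mean normalised count of at least 10 over the 20 libraries and were tested. The gene just above that limit had a mean of 10 and the gene just below it 9.997. Littermates share a treatment that comes with milk, and the labels name no litter, so the p values measure the spread between these libraries and may be smaller than they would be between litters.

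Lithium is a mood stabiliser. It inhibits glycogen synthase kinase 3 (GSK3), which marks beta-catenin and many other proteins for degradation, and the phosphatases that recycle inositol. Fluoxetine is an antidepressant that blocks the serotonin transporter and so keeps serotonin longer in the synaptic cleft. KMT5B is an enzyme that methylates lysine 20 of histone H4. In rodent cortex the weeks of treatment are those in which oligodendrocytes mature and wrap axons in myelin, and in which synaptic activity switches on immediate early genes through MAP kinase signalling. That signalling is held in check by its own targets, the dual-specificity phosphatases and the Sprouty and Spred proteins.

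The libraries held 23.5 to 33.8 M recovered reads, 26.2 M ± 2.06 with lithium and 28.2 M ± 3.23 with fluoxetine (SD, n = 10 each, permutation p = 0.111, two-sided, adjusted p = 0.229 over 3 library measures). The read scale of HT lithium male 3, at 29.0 M, was less certain than that of the others. By their sex-linked genes, all 20 libraries matched the sex given for them. Every marker of excitatory and of inhibitory neurons on the lists used here was detected. Markers of the olfactory bulb, which borders the prefrontal cortex in a dissection, summed to 5507 to 29910.4 normalised counts with fluoxetine and 5673 to 17734 with lithium. Of the 20 libraries 6 had a level more than 1 log2 unit below the mean of all 58. They were HT fluoxetine female 4, male 3 and male 5 and HT lithium female 4, male 1 and male 3. No HT vehicle library was that low, and the lowest of them was HT vehicle male 5 at -0.502. HT fluoxetine female 2 had the highest summed level of striatal neuron markers, 25733 against a median of 15583 with fluoxetine. Kmt5b itself (ENSMUSG00000045098, GRCm38 chromosome 19, 3767421 to 3818303) had 1749.5 ± 128 normalised counts with fluoxetine, 1744 ± 73.8 with lithium and 1709 ± 90.2 with vehicle in HT, beside 1742 ± 124 in WT fluoxetine and 1592 ± 132 in WT lithium libraries. The libraries labelled HT thus did not have less Kmt5b RNA, and HT here means libraries so labelled. The table gives 1 value per gene and does not tell transcripts of 2 alleles apart.

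Lithium and fluoxetine left the HT cortex with different levels of 1226 genes. This was 7.32% of the 16744 tested, of which 647 were higher with lithium (3.86%) and 579 were lower (3.46%), by limma at a Benjamini-Hochberg adjusted p under 0.05. Most differences were small. The median size was 0.241 on the log2 scale, 36 higher and 70 lower genes exceeded 1.5-fold, and the median over all genes tested was 0.00204. The same sign in females and males was seen in 1223 of the 1226. The range of the 10 lithium libraries lay wholly above that of the 10 fluoxetine libraries for 44 genes (0.263%) and wholly below for 24 (0.143%). Without HT fluoxetine male 1 the count fell to 772, and without the 6 libraries of low olfactory bulb level it was 698.

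**Figure D1:**
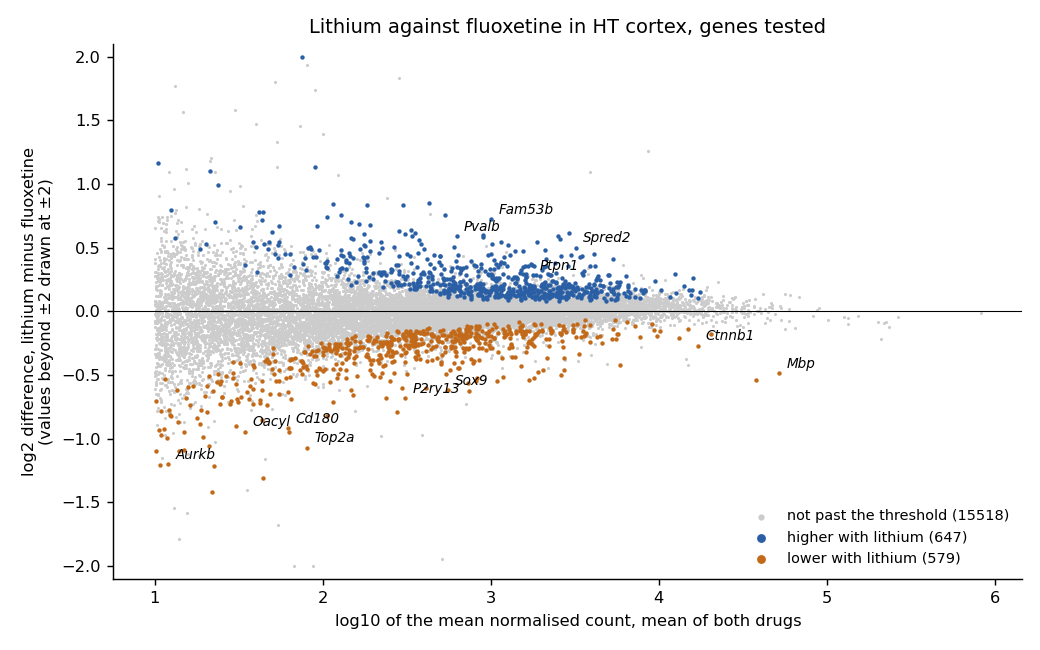
Each point is 1 of the 16744 genes tested, placed by its mean normalised count over both drugs (log10, horizontal) and its log2 difference, lithium minus fluoxetine, in HT cortex (vertical, values beyond 2 either way drawn at 2). The 647 genes higher with lithium are blue, the 579 lower are orange, and most of them lie within 1 log2 unit of 0.

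The gene with the smallest p value among those higher with lithium was Fam53b (ENSMUSG00000030956, GRCm38 chromosome 7, 132712082 to 132813886), a regulator of Wnt signalling in the nucleus. Its normalised counts ran from 652 to 1022 with fluoxetine (median 720.2) and from 1139.6 to 1403 with lithium (median 1265). The lowest lithium library was above the highest fluoxetine library. The mean was 1253 ± 81.8 with lithium and 765 ± 116 with fluoxetine (SD, n = 10 each), a 1.65-fold difference (log2 0.72, SE 0.0639, limma adjusted p = 2.21e-06). Vehicle libraries stood between the drugs, at 904 ± 102.

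Ptpn1, the phosphatase PTP1B that acts on the insulin and leptin receptors, ran from 1522 to 1746 with fluoxetine (median 1570.4) and from 1870.4 to 2022 with lithium (median 1959). It differed little in size (log2 0.28, SE 0.0278, adjusted p = 9.96e-06), yet no library of either drug reached the range of the other. Spred2, an inhibitor of the Ras and MAP kinase pathway, ran from 2338 to 3295 with fluoxetine (median 2619.8) and from 3448 to 4026 with lithium (median 3748), log2 0.50, adjusted p = 1.47e-05. Pfkfb3, whose enzyme makes the activator of the glycolytic step of phosphofructokinase, had 1194 ± 83.2 counts with lithium, 830.3 ± 95.5 with fluoxetine and 903 ± 57.7 with vehicle (log2 0.53, adjusted p = 2.04e-05). In each of these 3 genes the fluoxetine and lithium ranges were apart.

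Other leading genes were also higher with lithium, and a shared function among them was not tested. They were Jade2 (log2 0.52), a scaffold of histone acetyltransferases, Tet3 (0.36), which oxidises methylated cytosine, Gse1 (0.35), Jdp2 (0.28), a repressor that pairs with AP-1 proteins, Mlxip (0.26), a glucose-sensing transcription factor, Ccnd2 (0.45), cyclin D2, Ankrd33b (0.56) and Sntb2 (0.50), a syntrophin. Limma adjusted p values lay between 1.05e-05 for Ankrd33b and 8.62e-05 for Gse1. Ranges of the drugs overlapped for Ccnd2, Tet3, Jdp2 and Gse1 and were apart for the other 8 of these 12 genes, beside 0.263% of all genes with lithium wholly above.

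Among genes lower with lithium, Sox9 (ENSMUSG00000000567, GRCm38 chromosome 11, 112782224 to 112787760) had the smallest p value. It encodes a transcription factor of astrocytes and neural progenitors. Its counts ran from 598 to 739 with fluoxetine (median 672) and from 348 to 528 with lithium (median 469), log2 -0.62, SE 0.0527, adjusted p = 2.14e-06. All 5 lithium males, at 348 to 468.9, lay below every lithium female, of which the lowest was at 469.2, but the difference between the sexes' drug effects did not pass (log2 -0.42 in females, -0.82 in males, limma interaction adjusted p = 0.803). P2ry13, a purinergic receptor of microglia, ran from 312 to 501 with fluoxetine (median 368) and from 194 to 270.4 with lithium (median 242), log2 -0.68, adjusted p = 1.13e-05. Cd180, a Toll-like receptor homologue of B cells and microglia, ran from 60 to 98.5 with fluoxetine (median 80) and from 33.7 to 53.8 with lithium (median 43.4), log2 -0.92, adjusted p = 3.78e-05. In bulk tissue, fewer cells of a type and less RNA per cell cannot be told apart.

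Ctnnb1, the gene of beta-catenin, was lower with lithium as well (ENSMUSG00000006932, GRCm38 chromosome 9, 120929216 to 120960507). Its counts ran from 17334 to 20334 with fluoxetine (median 18943) and from 14788 to 16734 with lithium (median 15299), and the ranges did not overlap. With 19344 ± 1268 in vehicle libraries, fluoxetine stood close to vehicle (log2 -0.04, adjusted p = 0.496) and lithium below it (log2 -0.31, adjusted p = 1.35e-05). The direct difference was -0.27 (SE 0.0372, adjusted p = 0.000184). The other leading lower genes were Gtf2a1 (log2 -0.32), a subunit of the general factor TFIIA, Zfp36l2 (-0.40), which hastens decay of AU-rich mRNAs, Evi2a (-0.79), Gfpt2 (-0.68), an enzyme of the hexosamine pathway, Plekho2 (-0.49), Oacyl (-0.94), Nim1k (-0.25) and Pnck (-0.36), a calcium- and calmodulin-dependent kinase. Gfpt2 and Plekho2 were the only ones of the 12 lower genes whose drug ranges overlapped. Of all genes, 0.143% had lithium wholly below. The 24 leading genes kept their call in every other setting they were tested in, 20 of these leaving out 1 library each. That was 34 settings, and 33 for Cd180 and Oacyl, which a filter at a mean of 100 leaves out. The highest adjusted p, 0.0152, was that of Pnck with the level of oligodendrocyte markers as a covariate. The 24 genes were chosen for the smallest p values in these same libraries, so neither their kept calls nor their separate ranges are separate support.

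**Figure D2:**
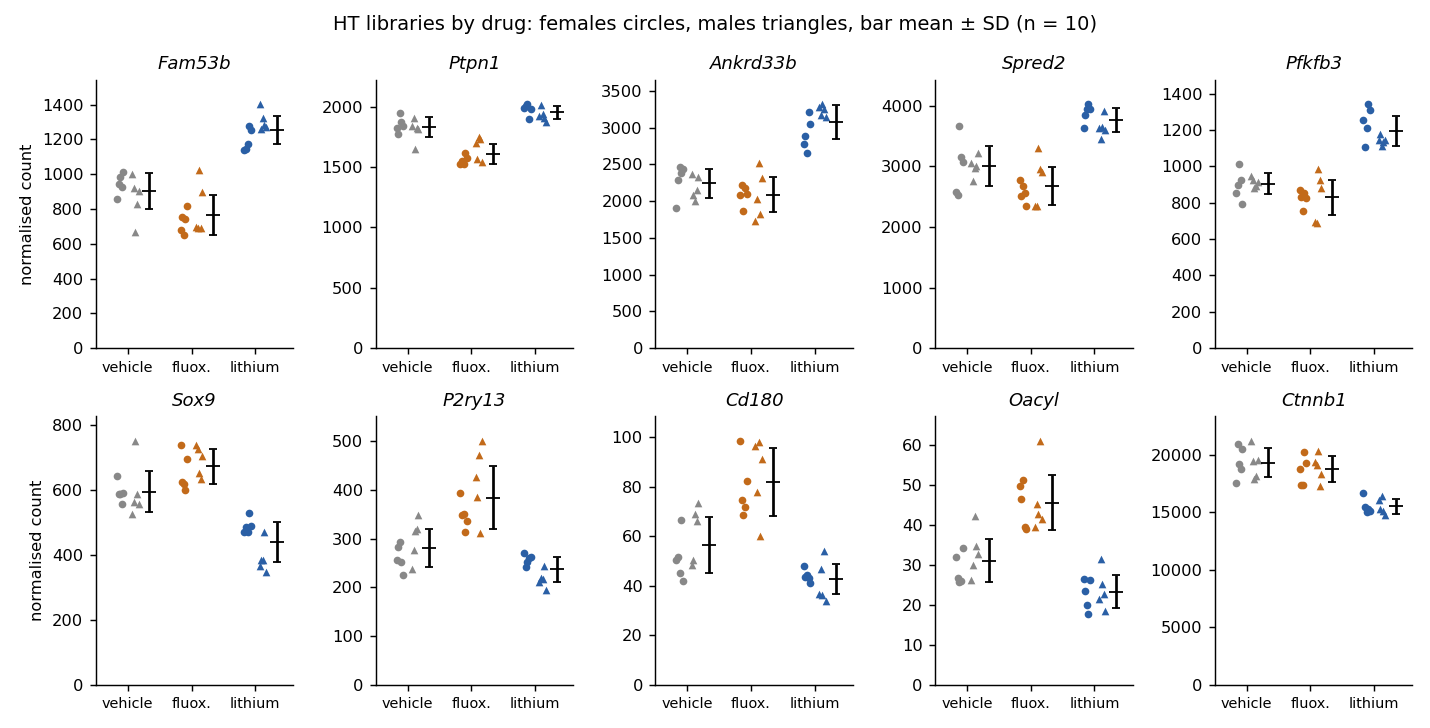
Normalised counts (vertical, from 0) of 10 of the leading genes in every HT library with vehicle, fluoxetine or lithium, with females as circles, males as triangles and a bar for the mean ± SD (n = 10). In all 10 panels the blue lithium points and the orange fluoxetine points occupy separate ranges, with lithium above in the upper row and below in the lower row. The 10 are among the 18 of 24 leading genes with separate ranges. Leading genes were chosen for small p values in these libraries, so the separation is not separate support.

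Set beside vehicle, the 24 leading genes parted from it in different ways. These comparisons share the drug libraries with the direct one, and are given as levels only. Vehicle was also not matched to the drugs in olfactory bulb markers. Their median log2 difference from vehicle was -0.882 with fluoxetine and -0.878 with lithium, with 0 of 16 called. What part this has in the levels of single genes against vehicle was not tested. Of the 12 genes higher with lithium, 10 were above vehicle with lithium and 4 were below it with fluoxetine at an adjusted p under 0.05. Of the 12 lower genes, 10 were below vehicle with lithium and 8 above it with fluoxetine. Sntb2 had 496 ± 41.4 counts with vehicle, 502 ± 46.4 with fluoxetine and 714 ± 85.7 with lithium. Zfp36l2 had 612 ± 44.9, 762 ± 70 and 578 ± 33.2 in the same order, and was apart from vehicle mainly with fluoxetine. Oacyl had 31.1 ± 5.29 with vehicle, 45.6 ± 6.96 with fluoxetine and 23.3 ± 4.16 with lithium, on either side of vehicle. Of all genes, 14.2% were called for fluoxetine against vehicle (7.51% higher and 6.66% lower) and 16% for lithium against vehicle (8.45% higher and 7.58% lower). Counts of list members against vehicle below are to be read beside these shares.

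Gsk3a, Gsk3b and Impa1, genes of known lithium targets, did not pass between the drugs at the RNA level. On a list of GSK3, inositol and nucleotide phosphatase genes, 2 of 25 tested members were higher with lithium and 1 was lower, with a median log2 difference of 0.0181. List counts between the drugs, here and below, are to be read beside 3.86% of all genes higher and 3.46% lower. Gsk3a had 5999 ± 511 counts with fluoxetine and 5957 ± 334 with lithium (log2 -0.01, adjusted p = 0.948). Gsk3b had 6482 ± 329.6 and 6561 ± 316 (log2 0.02, adjusted p = 0.804), and Impa1, the inositol monophosphatase, 1922 ± 128 and 1997 ± 122 (log2 0.06, adjusted p = 0.38). The 95% interval of the difference was -0.05 to 0.09 for Gsk3b, -0.02 to 0.13 for Impa1 and -0.10 to 0.09 for Gsk3a. These 3 genes were chosen after their values were seen. Marcks, a substrate of protein kinase C whose protein is known to fall under chronic lithium in cultured neural cells, was lower with lithium (6019.8 ± 418 to 5181 ± 488, log2 -0.22, adjusted p = 0.00707). Plcb1 (0.17, adjusted p = 0.027) and Plcb4 (0.18, adjusted p = 0.0452), phospholipases that release inositol trisphosphate, were higher. The call of Plcb4 was lost when any 1 of 17 of the 20 libraries was left out, and that of Plcb1 without HT fluoxetine female 1, HT lithium female 4 or HT lithium male 1.

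The list of beta-catenin, its Wnt receptors and the genes it switches on gave 1 higher and 2 lower of 27 tested (median 0.00955). Ctnnb1, described above, was one of the lower genes. The Wnt receptor gene Fzd7 (log2 -0.38, adjusted p = 0.043) was the other, a call lost without any 1 of 14 libraries. Znrf3, a ligase that removes Wnt receptors, was higher (0.14, adjusted p = 0.0269), a call lost without HT fluoxetine male 1, HT lithium female 4 or HT lithium male 1. Myc had 113 ± 16.1 counts with fluoxetine and 91.7 ± 13.7 with lithium, log2 -0.30, just short of the threshold (adjusted p = 0.0521).

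The serotonin and monoamine list, which holds the receptors downstream of the fluoxetine target, gave 1 higher and 0 lower of 26 tested (median 0.0279). Of all genes 3.86% were higher and 3.46% lower. Htr5a, the 5-HT5A receptor, ran from 539.7 to 777 with fluoxetine (median 632) and from 693 to 951 with lithium (median 779), log2 0.28, SE 0.0582, adjusted p = 0.00526. Vehicle libraries had 660.5 ± 59.6, near fluoxetine. Htr2a, the 5-HT2A receptor and chosen after its values were seen, had 1913 ± 279 with fluoxetine and 1795 ± 162 with lithium (log2 -0.08, adjusted p = 0.547). Among muscarinic and nicotinic receptors 1 of 14 was higher, Chrm4, the Gi-coupled M4 receptor. It ran from 206 to 385 with fluoxetine (median 270.3) and from 322 to 468 with lithium (median 370.1), log2 0.43, adjusted p = 0.00462. Vehicle libraries had 436 ± 37. Fluoxetine was below them (log2 -0.64, adjusted p = 5.31e-05), and the lithium difference of -0.21 did not pass (adjusted p = 0.0603).

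Feedback inhibitors of MAP kinase signalling were higher with lithium where they passed the test. Of 15 tested, 6 were higher and 0 were lower, beside 3.86% and 3.46% of all genes, and the median was 0.209 beside 0.00204. The 6 were Spred2, Spred1, Spred3, Spry4, Dusp4 and Dusp6. Spry4, a Sprouty inhibitor of receptor tyrosine kinases, ran from 266 to 431 with fluoxetine (median 340.2) and from 402 to 544 with lithium (median 475), log2 0.49, SE 0.0781, adjusted p = 0.000644. Dusp4, a nuclear phosphatase of ERK, ran from 145 to 272 with fluoxetine (median 183) and from 180.4 to 315 with lithium (median 266), log2 0.50, adjusted p = 0.00472. Spred3 had 1787 ± 248 and 2155 ± 142 (log2 0.28, adjusted p = 0.00775). The summed level of the list was 20189 ± 1507 with fluoxetine, 23646 ± 692 with lithium and 21186 ± 1004 with vehicle (SD, n = 10 each). In WT the same sum was 20657 ± 1207 with fluoxetine (n = 10) and 24215 ± 1205 with lithium (n = 8). Leaving out any 1 library gave 5 to 7 higher members and 0 lower. With the level of oligodendrocyte markers as a covariate, 2 were past the threshold, beside 177 of all 16744 genes in that setting.

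Immediate early genes, which neurons transcribe within minutes of activity, leaned the same way. Of 38 tested, 32 had a higher mean log2 level with lithium (median 0.297). Only 6 passed as higher and 0 as lower, beside 3.86% and 3.46% of all genes. Ier5 ran from 1244 to 2212 with fluoxetine (median 1362) and from 1987 to 2571 with lithium (median 2233), log2 0.55, adjusted p = 0.00099. Nab2, a corepressor of EGR factors, had 823 ± 209 with fluoxetine and 1095 ± 118 with lithium (log2 0.44, adjusted p = 0.0097), with 8 fluoxetine libraries at 586 to 855 and the other pair, females 4 and 5, at 1236 and 1147, within the lithium range. Bdnf, the neurotrophin whose promoters answer to calcium, ran from 738 to 1136 with fluoxetine (median 878) and from 987 to 1299 with lithium (median 1106), log2 0.29, adjusted p = 0.023, a call lost without HT fluoxetine male 1 (adjusted p = 0.0512). Nr4a3, Ier5l and Per1 were the other genes past the threshold. Fos, chosen after its values were seen, spread from 198 to 1701 with fluoxetine (median 645) and from 577 to 1326 with lithium (median 762), so that its log2 difference of 0.38 did not pass (adjusted p = 0.524).

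The fluoxetine libraries spread more widely in these genes than the lithium libraries. The list summed to 31012 to 60563 with fluoxetine (43592 ± 10972, SD, n = 10) and to 48137 to 60449 with lithium (53033 ± 3528), with vehicle at 58092 ± 8186. Against vehicle, 25 of the 38 genes were lower with fluoxetine and 0 higher, beside 6.66% and 7.51% of all genes. With lithium 3 were lower and 3 higher, beside 7.58% and 8.45%. Those comparisons use the same drug libraries as the direct one, and HT vehicle had no library of low olfactory bulb level. The number of higher members was 10 without HT fluoxetine female 4, 11 without HT fluoxetine male 3 and 4 without HT fluoxetine male 1, and edgeR gave 3. In WT, 19 of the 38 were higher with lithium and 0 were lower, beside 0.889% and 0.48% of all genes there. The genotype by drug test called 0 of the 38 by limma, so the larger number in WT is not shown to be a difference between the genotypes. Over all genes it called 0 by limma, 5 by edgeR and 115 by DESeq2. How many immediate early genes are among the latter was not counted.

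Clock genes and genes that glucocorticoids induce shared Per1, a period gene of the circadian clock that is also an immediate early gene. Per1 ran from 1513 to 2678 with fluoxetine (median 1957) and from 2382 to 3712 with lithium (median 2918). It averaged 3013 ± 437 with lithium, near the 2864 ± 345 of vehicle, and 2011 ± 387 with fluoxetine (log2 0.59, SE 0.0919, adjusted p = 0.000517). Of 23 clock genes 5 were higher with lithium and 1 was lower, beside 3.86% and 3.46% of all genes (median 0.0407). Per2 ran from 826 to 1481 with fluoxetine (median 1085) and from 1296 to 1648 with lithium (median 1522), log2 0.45, adjusted p = 0.000295, and vehicle had 1090.4 ± 203. Bhlhe40, which represses E-box genes, ran from 1763 to 3385 with fluoxetine (median 2101) and from 2455 to 4410.2 with lithium (median 3564), log2 0.62, adjusted p = 0.0018. Arntl, the gene of BMAL1, was higher by 0.22 (adjusted p = 0.00252). Clock was the fifth higher gene, and Dbp, an output gene of the clock, was the lower one. The hour at which tissue was taken is not in the labels, so its part in these values was not tested.

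Of 25 genes on the glucocorticoid list 5 were higher with lithium and 0 were lower, beside 3.86% and 3.46% of all genes. The median was 0.228, and 8 members were higher without HT fluoxetine male 4. Klf15, a Kruppel-like factor induced by the glucocorticoid receptor, ran from 401 to 541 with fluoxetine (median 460.2) and from 492 to 682 with lithium (median 578), log2 0.33, SE 0.0497, adjusted p = 0.000404. Zbtb16 had 771 ± 114 counts with vehicle, 966 ± 288 with fluoxetine and 1348 ± 142 with lithium (log2 0.54 between the drugs, adjusted p = 0.0142). Tsc22d3, the gene of GILZ, had 1427 ± 256, 1598 ± 266 and 2043 ± 283 in the same order (log2 0.36, adjusted p = 0.00854). Its call was lost without the 6 libraries of low olfactory bulb level (adjusted p = 0.0662).

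The E-box CACGTG, the letters that CLOCK and BMAL1 bind, was searched on both strands in RefSeq windows from 250 bases before to 50 after a gene's start. It was found in 5 of 19 clock genes that had a window (26.3%), in 62 of 486 genes higher with lithium (12.8%), in 43 of 426 lower genes (10.1%) and in 11.2% of 12131 genes tested. It was found in 8.09% of all 27025 genes with a window. Also searched were the CRE TGACGTCA, AP-1 TGANTCA, EGR GCGTGGGCG and sterol response TCACCCCAC motifs, and the TG at the end of the E-box can be shared with the start of CRE or AP-1. The CRE stood in 3 of 30 immediate early genes (10%), 2 of 13 MAP kinase feedback genes (15.4%) and 3.38% of genes tested. It also stood in 2 of 21 glucocorticoid genes (9.52%), 2 of 26 cell cycle genes (7.69%), 1 of 19 clock genes (5.26%) and 0 of 15 myelin genes. The E-box stood in 5 of 21 glucocorticoid genes (23.8%), 7 of 30 immediate early genes (23.3%) and 2 of 13 MAP kinase feedback genes (15.4%). Of cell cycle genes 1 of 26 had the E-box (3.85%), and of myelin genes 0 of 15. The windows of Per1 and Klf15 are shown as those of 2 genes past the threshold that hold the motif, in capitals here. A match is a description of these letters.
Per1, GRCm38.p6, plus strand, chr11:69098699-69098998, E-box at -166: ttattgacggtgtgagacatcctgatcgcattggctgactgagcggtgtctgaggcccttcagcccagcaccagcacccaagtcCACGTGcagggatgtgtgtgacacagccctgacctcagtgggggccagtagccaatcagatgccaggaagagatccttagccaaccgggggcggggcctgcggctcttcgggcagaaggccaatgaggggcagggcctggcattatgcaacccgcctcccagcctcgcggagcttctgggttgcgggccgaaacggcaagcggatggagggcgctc
Klf15, GRCm38.p6, plus strand, chr6:90462326-90462625, E-boxes at -228, -172 and -3: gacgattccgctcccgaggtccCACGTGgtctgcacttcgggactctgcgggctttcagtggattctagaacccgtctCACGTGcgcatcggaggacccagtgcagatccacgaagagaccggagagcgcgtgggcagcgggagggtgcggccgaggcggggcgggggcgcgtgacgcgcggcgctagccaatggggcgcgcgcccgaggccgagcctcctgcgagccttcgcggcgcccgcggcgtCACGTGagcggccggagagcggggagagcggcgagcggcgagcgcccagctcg
Positions count from the start site, with -1 the base before it. Per1 has 1 match in this window and Klf15 has 3, the last of them across the start site.

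Insulin and FOXO genes gave 6 higher and 1 lower of 26 tested, beside 3.86% and 3.46% of all genes (median 0.0552). Irs2, the docking protein of the insulin receptor, ran from 1077 to 1506 with fluoxetine (median 1314) and from 1542 to 2144 with lithium (median 1805), ranges that did not overlap (log2 0.48, SE 0.0664, adjusted p = 0.000218). Pik3r1, the regulatory subunit of PI3 kinase, was higher by 0.19 (adjusted p = 0.000763), Foxo6 by 0.59 (adjusted p = 0.00575) and Foxo3 by 0.12 (adjusted p = 0.00623). Trib2 and Sesn1 were also higher, and Foxo1 was the lower member. Leaving out any 1 library kept 6 or 7 higher.

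The integrated stress response, in which ATF4 drives amino acid genes, was mixed. Of 20 tested, 4 were higher and 2 lower, beside 3.86% and 3.46% of all genes. Atf4 itself was higher with lithium, at 3460.0 ± 217 against 3029 ± 247 (log2 0.19, adjusted p = 0.00947), with Sesn2 (0.26, adjusted p = 0.00477), Ddit3 (0.20, adjusted p = 0.014) and Ppp1r15a. Psat1 (-0.18, adjusted p = 0.00485) and Phgdh, enzymes of serine synthesis that are high in glia, were lower. Without the 6 libraries of low olfactory bulb level 1 was higher and 0 were lower.

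Neuronal genes that passed were mostly higher with lithium, by small amounts. Potassium channels gave 5 higher and 0 lower of 38, beside 3.86% and 3.46% of all genes (median 0.067). Kcnf1 ran from 4579 to 5616 with fluoxetine (median 5235) and from 5649 to 6264 with lithium (median 5858), log2 0.19, adjusted p = 0.00485, and its ranges did not overlap. The channels of fast-spiking cells Kcnc1 (Kv3.1, log2 0.20, adjusted p = 0.00517) and Kcna1 (Kv1.1, 0.35, adjusted p = 0.0197) were higher. In WT the log2 differences of Kcnc1 and Kcna1 were -0.0038 and -0.06. Pvalb, parvalbumin of fast-spiking interneurons, ran from 252 to 645 with fluoxetine (median 532) and from 655 to 824 with lithium (median 749.8) with no overlap (log2 0.59, SE 0.12, adjusted p = 0.00501). HT fluoxetine male 4 was the lowest of all, at 252. Pvalb was the only one of 25 inhibitory neuron markers past the threshold, and of 18 excitatory markers 0 passed by limma, edgeR or DESeq2, with 3 at an unadjusted limma p under 0.05.

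At the presynapse 4 of 31 genes were higher and 1 was lower, beside 3.86% and 3.46% of all genes. Syt2, the calcium sensor of fast synapses, ran from 304 to 674 with fluoxetine (median 594) and from 601 to 931 with lithium (median 719), log2 0.44, adjusted p = 0.0269, Bsn, the active zone protein bassoon, was higher by 0.27 (adjusted p = 0.0219), and Cplx1, complexin, by 0.13 (adjusted p = 0.0182). Unc13b, a vesicle priming gene, was the fourth. Sypl, a synaptophysin relative that many non-neuronal cells express, was lower (-0.29, adjusted p = 0.000899). Without HT fluoxetine male 1 or HT lithium male 1 the count of higher genes was 2. Of 16 GABA receptor genes Gabra3 (0.22, adjusted p = 0.00485) and Gabrb2 (0.30, adjusted p = 0.0396) were higher and 0 lower, the latter a call lost without any 1 of 13 libraries. Among neurotrophin genes, Vgf, a secreted peptide precursor that BDNF induces, was higher (3687 ± 561 to 4697 ± 501, log2 0.36, adjusted p = 0.0097), with vehicle at 4676 ± 591. Ntf3, a low-abundance neurotrophin, was lower (29.9 ± 9.04 to 19.2 ± 4.35, log2 -0.57, adjusted p = 0.0431), a call lost without any 1 of 14 libraries.

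**Figure D3:**
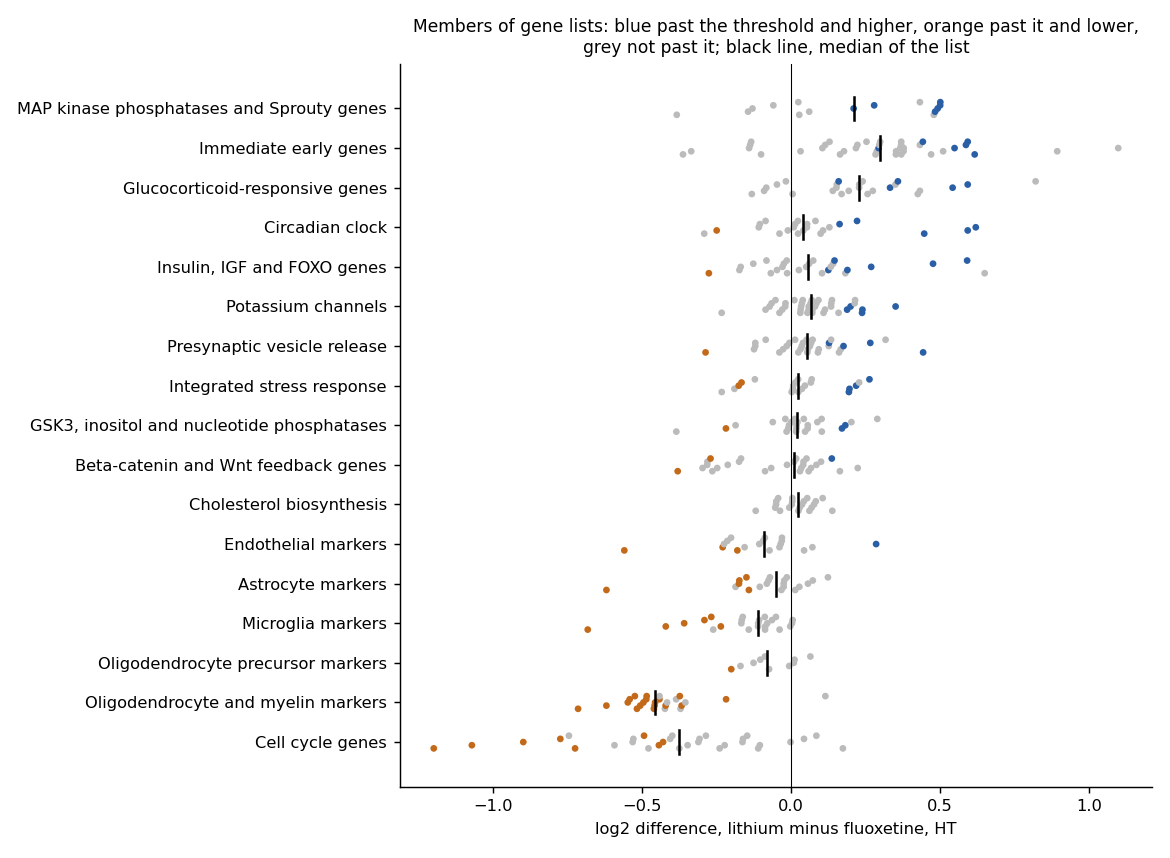
Log2 difference, lithium minus fluoxetine, in HT cortex (horizontal) of each tested member of 17 gene lists (rows), blue where higher and orange where lower past the threshold, grey otherwise, with a black line at the list's median. Medians reach 0.297 in immediate early genes, -0.376 in cell cycle genes and -0.457 in oligodendrocyte and myelin markers, and stay near 0 for cholesterol synthesis.

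Oligodendrocyte and myelin genes were lower with lithium than with fluoxetine. Of 25 tested, 18 were lower and 0 were higher, beside 3.46% and 3.86% of all genes, and the median was -0.457. Olig2, a transcription factor of the lineage, ran from 537 to 818 with fluoxetine (median 640.2) and from 383 to 601 with lithium (median 482), log2 -0.46, SE 0.0676, adjusted p = 0.000382. Sox10 (-0.37, adjusted p = 0.00775) and Ugt8a (-0.52, adjusted p = 0.0125), which makes the myelin lipid galactosylceramide, were lower too. Mbp, chosen after its values were seen, ran from 34027 to 82214 with fluoxetine (median 63899) and from 32617 to 49587 with lithium (median 43645), log2 -0.49, adjusted p = 0.0399, a call lost without any 1 of 15 libraries.

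The spread of these genes lay mainly in the fluoxetine group. The list summed to 101788 to 229577 with fluoxetine (median 172725), 99191 to 141967 with lithium (median 121887) and 80533 to 161474 with vehicle. Fluoxetine libraries stood on average above vehicle, 169499 ± 41255 against 129132 ± 25494, and lithium libraries at 122063 ± 16768 (SD, n = 10 each). Against vehicle 9 members were higher with fluoxetine, and with lithium 1 was higher and 6 were lower. The highest sum belonged to HT fluoxetine female 2, the library with the high striatal level. Without HT fluoxetine male 1, HT lithium female 2 or HT fluoxetine female 5, 8, 9 and 11 members were lower. Without the 6 libraries of low olfactory bulb level 5 were lower, while the median, -0.473, was as large. Oligodendrocyte precursors differed less, with 1 of 10 markers lower (Ptprz1, log2 -0.20, adjusted p = 0.0108) and Pdgfra at 1844 ± 156 and 1733 ± 139.7 (log2 -0.09, adjusted p = 0.323).

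**Figure D4:**
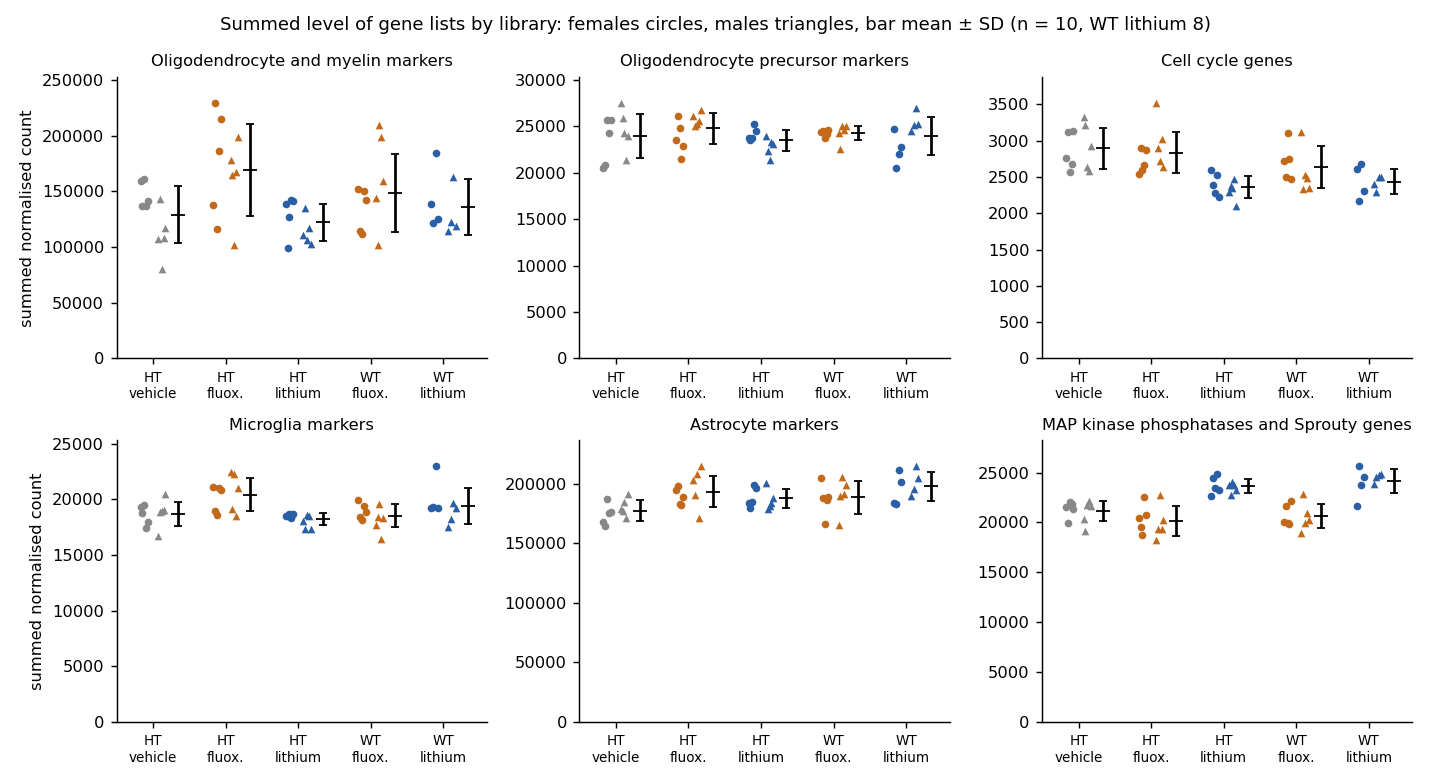
Summed normalised counts (vertical, from 0) of 6 gene lists in each library of HT vehicle, HT and WT fluoxetine, and HT and WT lithium mice, with females as circles, males as triangles and a bar for the mean ± SD. The oligodendrocyte sums of HT fluoxetine range from 101788 to 229577 and overlap with those of HT lithium, while the sums of MAP kinase feedback genes are 20189 ± 1507 and 23646 ± 692.

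Cell cycle genes mark dividing cells in the tissue. The list does not hold Ccnd2, the cyclin D2 gene described above, which was higher with lithium. Of 31 tested, 8 were lower with lithium and 0 were higher, beside 3.46% and 3.86% of all genes, and 23 did not pass. In females alone 0 passed (median -0.143), beside 0.364% of all genes lower and 0.866% higher. In males 7 were lower (median -0.405), beside 1.03% of all genes lower. The sex by drug test called none of the list. In all, 28 had a mean log2 level below that of fluoxetine (median -0.376). Top2a, the topoisomerase of dividing cells, ran from 67.6 to 194 with fluoxetine (median 97.7) and from 22.1 to 81.3 with lithium (median 52.7), log2 -1.07, SE 0.18, adjusted p = 0.000986. Aurkb, a mitotic kinase, ran from 11.6 to 30 with fluoxetine (median 16.2) and from 1.16 to 11.2 with lithium (median 8.55), so the ranges did not overlap (log2 -1.20, SE 0.242, adjusted p = 0.00485). Ccna2 (-0.43, adjusted p = 0.0112) and Bub1 (-0.78, adjusted p = 0.0128) were lower, and the call of Bub1 was lost by DESeq2 (adjusted p = 0.0512), with all 58 libraries in the fit and without the 6 libraries of low olfactory bulb level. The list summed to 2535 to 3523 with fluoxetine (2836 ± 288), 2100.2 to 2595 with lithium (2360.4 ± 145) and 2894 ± 285 with vehicle. Against vehicle 1 gene was lower with fluoxetine and 14 were lower with lithium. HT fluoxetine male 1 had the highest Aurkb and Bub1, and 5 genes were lower without it, without HT lithium male 1 or without HT lithium female 5.

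Of 24 microglia markers 22 had a lower mean log2 level with lithium (median -0.111). Past the threshold were 6 lower and 0 higher, beside 3.46% and 3.86% of all genes. Besides P2ry13 they included Cx3cr1, the fractalkine receptor, which ran from 1185 to 1561 with fluoxetine (median 1431) and from 1065 to 1278 with lithium (median 1167), log2 -0.29, adjusted p = 0.000834, and Ly86, the MD-1 partner of the Cd180 product, which ran from 226 to 374 with fluoxetine (median 250.2) and from 181 to 226 with lithium (median 196) with no overlap (log2 -0.42, adjusted p = 0.00442). Itgam (-0.27, adjusted p = 0.00663) and P2ry12 were also lower. The list summed to 20396 ± 1482 with fluoxetine, 18246 ± 517 with lithium and 18702 ± 1080 with vehicle. Against vehicle 7 members were higher and 0 lower with fluoxetine, and 0 higher and 2 lower with lithium. Leaving out any 1 library gave 6 to 8 lower between the drugs.

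Of 20 astrocyte markers 5 were lower and 0 higher, beside 3.46% and 3.86% of all genes (median -0.0522). Sox9 led, with a far larger difference than the glutamate transporter gene Slc1a3 (-0.18, adjusted p = 0.00695), S100b (-0.17, adjusted p = 0.00726), Gja1 or Atp1b2 (-0.15, adjusted p = 0.0295). The summed level was 193263 ± 13105 with fluoxetine and 187519 ± 8035 with lithium, with vehicle at 177329.5 ± 8656. Against vehicle 9 were higher with fluoxetine, and with lithium 3 were higher and 1 was lower. Without HT fluoxetine female 5 or male 1, or HT lithium female 1, female 2, male 2 or male 3, 3 astrocyte markers were lower. Among 18 endothelial markers Kdr, the VEGF receptor, was lower (872 ± 163 to 589 ± 93.8, log2 -0.56, adjusted p = 0.000454), with Slco1a4 and Itm2a, while Slc2a1, the glucose transporter of the blood-brain barrier, was higher (3207 ± 498 to 3882 ± 376, log2 0.28, adjusted p = 0.0274) and stood at 2685 ± 189 with vehicle. The calls of Slco1a4 and Itm2a were lost without any 1 of 13 and 12 libraries, and that of Slc2a1 without HT lithium female 3, female 5 or male 1. Pdgfrb of pericytes was the only one of 18 mural and fibroblast markers past the threshold (788 ± 50.9 to 645 ± 36.4, log2 -0.29, adjusted p = 0.000397). Of 6 blood, 7 choroid plexus, 15 striatal and 16 olfactory bulb markers 0 passed by limma, edgeR or DESeq2, and 2, 1, 0 and 1 had an unadjusted limma p under 0.05.

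The level of oligodendrocyte markers in a library, the mean log2 level of the genes on the myelin list, was also used as a covariate. This setting was chosen after seeing the data and also takes out any drug effect on these cells. The level itself differed between the drugs, which makes the drug difference less certain, so a lost call does not show that a gene followed the level. In this setting 177 of the 16744 genes tested were called, 169 of them among the 1226. List counts in brackets below are to be read beside that share. Members of the myelin list were here fitted against their own mean level, so a median near 0 for that list was fixed in advance. The median of the myelin list was then 0.00627, that of cell cycle genes -0.238 (0 called), that of microglia markers -0.134 (1 lower), that of MAP kinase feedback genes 0.175 and that of immediate early genes 0.355 (2 higher). Without the covariate these medians were -0.457, -0.376, -0.111, 0.209 and 0.297 in the same order. What part the oligodendrocyte level has in the other differences was not tested.

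The remaining lists are given by their counts, to be read beside 3.86% of all genes higher and 3.46% lower. Of 21 cholesterol synthesis genes 0 passed by limma, edgeR or DESeq2 and 3 had an unadjusted limma p under 0.05 (median 0.0243), although 8 of them were lower than vehicle with fluoxetine and 10 with lithium. Of 15 mitochondrially encoded genes and 33 proteasome genes 0 passed by any of these tools, with 2 and 1 at an unadjusted limma p under 0.05, and 1 of 73 nuclear oxidative phosphorylation genes was higher. Of 78 ribosomal protein genes 2 were lower, Rps6 and Rpl4. Counts of higher and lower members were 2 and 2 of 13 Kruppel-like factors, 2 and 2 of 41 lysosomal genes, 2 and 2 of 27 sphingolipid enzymes, 1 and 1 of 21 unfolded protein response genes, and 1 and 1 of 24 heat shock chaperones. They were 2 and 1 of 39 glutamate receptor and scaffold genes, 2 and 1 of 20 thyroid hormone-responsive genes, 0 and 1 of 30 ion transporters, 0 and 1 of 11 thalamus markers, 2 and 0 of 22 hypoxia genes and 0 of 21 sterol transport genes (3 at an unadjusted limma p under 0.05). Among them the chaperone genes Dnajb5 (0.41, adjusted p = 0.000386), higher, and Cryab (-0.28, adjusted p = 0.0431), which oligodendrocytes and astrocytes express, lower, went opposite ways.

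Hif3a, a hypoxia-inducible factor chosen after its values were seen, had 144 ± 41.9 counts with vehicle, 302 ± 76.3 with fluoxetine and 394 ± 47.1 with lithium. Both drugs stood above vehicle (log2 1.06, adjusted p = 0.000125, and 1.49, adjusted p = 1.04e-06), and the direct difference of 0.42 did not pass (adjusted p = 0.0582, 95% interval 0.14 to 0.71). Among writers and partners of the mark that KMT5B makes, 3 of 10 were higher with lithium and 0 lower, beside 3.86% and 3.46% of all genes. The 3 were the demethylase genes Kdm7a (0.18, adjusted p = 0.0229) and Phf8 (0.16, adjusted p = 0.0314) and the monomethyltransferase gene Kmt5a (0.13, adjusted p = 0.0329). The latter pair lost their calls without any 1 of 9 and 9 libraries.

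No gene was shown to respond differently in females and males. Sex by drug gave 0 genes at an adjusted p under 0.05 by limma, with 943 at an unadjusted p under 0.05 and a smallest adjusted p of 0.803. EdgeR and DESeq2 gave 0 as well. Among the genes with the smallest interaction p were Gadd45a, a stress-induced gene with log2 0.16 in females and 0.98 in males (interaction adjusted p = 0.803), and Knl1, a kinetochore gene, with 0.09 and -1.83 (interaction adjusted p = 0.803). Alone, females gave 206 genes (1.23%), of which 145 were higher (0.866%) and 61 lower (0.364%). Males gave 337 (2.01%), of which 165 were higher (0.985%) and 172 lower (1.03%). These counts moved with single libraries, from 55 without HT fluoxetine female 5 to 458 without HT fluoxetine female 3 in females, and from 116 without HT fluoxetine male 1 to 623 without HT fluoxetine male 3 in males.

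The 18 WT libraries, which share none with the HT comparison, set lithium against fluoxetine in wild-type mice. There 148 genes were higher with lithium and 80 lower of 16655 tested (0.889% and 0.48%, 1.37% in all), and 2848 had an unadjusted p under 0.05. Of the 1219 HT genes with a WT value, 958 had the same sign in WT, beside 9871 of all 16578 genes. Genes called in both with the same sign numbered 114, of the 1226 in HT and the 228 in WT, and 1 was called with opposite signs. All 24 leading genes had the same sign in WT, and 8 of the 12 higher and 3 of the 12 lower ones, P2ry13, Gfpt2 and Nim1k, passed. Fam53b was at 823 ± 133 with fluoxetine and 1224 ± 149 with lithium in WT (SD, n = 10 and 8, log2 0.58, adjusted p = 0.00269). Ptpn1 (log2 0.30, adjusted p = 0.00222), Pfkfb3 (0.47, adjusted p = 0.000394) and Ccnd2 (0.43, adjusted p = 0.000805) passed as well. Sox9 did not (log2 -0.16, adjusted p = 0.405), nor did Ctnnb1 (-0.14, adjusted p = 0.0668).

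**Figure D5:**
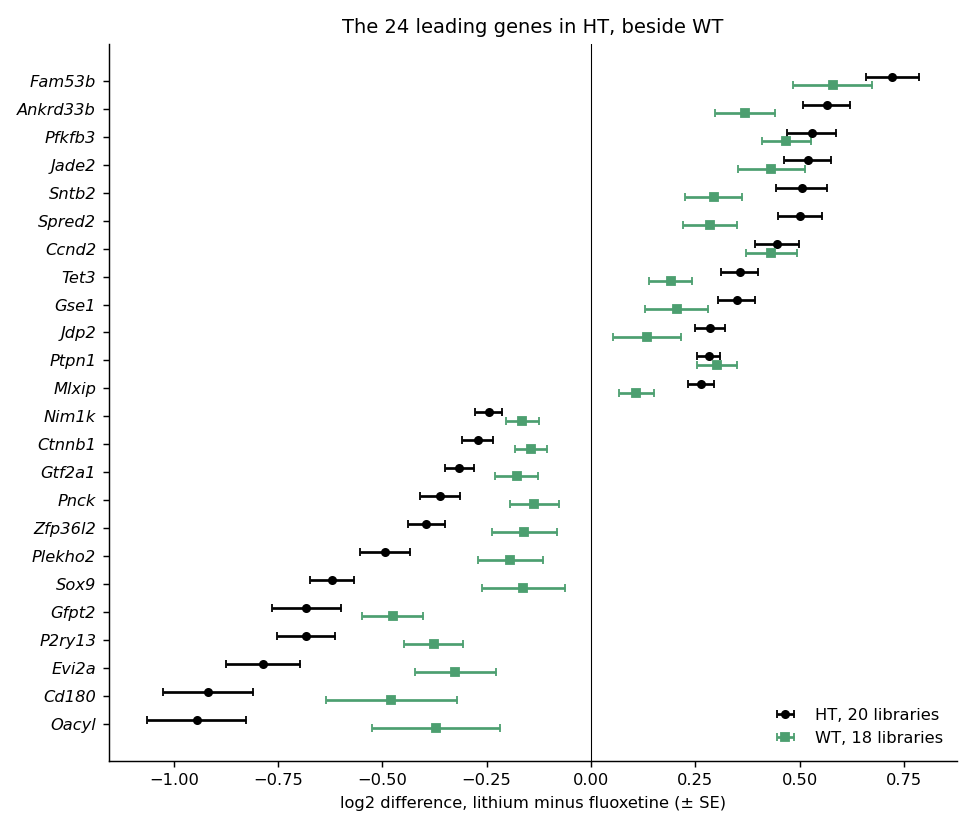
Log2 difference, lithium minus fluoxetine (horizontal, ± SE), of the 24 leading HT genes in the 20 HT libraries (black circles) and in the 18 WT libraries (green squares). All 24 pairs lie on the same side of 0, and since the genes were chosen for small p values in HT, larger HT differences are to be read with that choice in mind.

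The myelin list gave 0 lower and 0 higher of 25 in WT (median -0.112), the cell cycle list 1 lower (median -0.0697) and microglia markers 1 lower (median 0.104). Genotype by drug, the test of the difference between the genotypes, gave 0 genes of 16699 by limma, with 2216 at an unadjusted p under 0.05 and a smallest adjusted p of 0.0518. By edgeR it gave 5 and by DESeq2 115 genes, and 342 were called without WT lithium female 1. Genes with the smallest interaction p were Apex2 (log2 0.31 in HT and -0.11 in WT, interaction adjusted p = 0.0926), Atxn2 (0.20 and -0.09) and Moap1 (0.18 and -0.14) on the side of HT, and Prdx6 (-0.19 and 0.14, interaction adjusted p = 0.0518), Fermt2 (-0.15 and 0.16) and Gramd3 (-0.40 and 0.14) on the other. The number of WT genes was 1706 without WT lithium female 1.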

How the data were processed

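RNA of mouse prefrontal cortex was sequenced as stranded poly(A) libraries, per the labels' protocols. The authors deposited 1 table of normalised counts (unit signal: gene counts divided by a size factor of each library) for 18088 genes in 58 libraries, on GRCm38. The submitters' processing notes name Salmon 0.11.2, R 3.6.0 and DESeq2 1.19.11, and their roles and the annotation release are not given in the sources used here. Whole reads were recovered in 54 of 58 libraries (100% of values whole within 0.01); HT lithium male 3 was not decided among the 20, so the count tests used 19. Symbols and positions came from GENCODE M21 for 18077 genes and 11 had none, and promoter windows from RefSeq on GRCm38.p6, matched for 12131 of 16726 genes tested with a symbol. No genome sequence or protein table was used here, and some genes of the lists are not reported here by name.

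Genes with a mean of at least 10 were tested with limma 3.58.1 in R 4.3.3, with a variance trend, on log2(value + 1), so a fold change understates that of low genes. Each drug and sex had its own coefficient, the sexes were averaged, and p values were adjusted by Benjamini-Hochberg over all genes tested, at 0.05. The WT test used 18 libraries, genotype by drug 38, and the levels against vehicle the 30 HT libraries. Library measures were compared by permutation with 100000 resamples. The count tests were edgeR 4.0.16 (quasi-likelihood) and DESeq2 1.42.0 on recovered reads. Simulated data with known changes were used to test the code. Pairs of replicates differed by more than sampling noise in all 40 pairs compared.

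The named genes are the 12 higher and 12 lower with the smallest p and the same sign in both sexes, without predicted genes, RIKEN clones and pseudogenes, up to 4 members with the smallest p of each described list, and the 3 each way with the smallest p of each interaction. Mbp, Gsk3a, Gsk3b, Impa1, Hif3a, Fos, Kcnc1, Htr2a and members named beyond these were chosen after their values were seen. The 44 gene lists (1025 members tested) and the comparison were chosen with earlier results of these data known. Alternatives covered normalisation, filter, pseudocount, trend, the count tests, all 58 libraries in 1 fit, a replicate block, marker levels as covariates and leaving out each library.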

Additional observations from a re-analysis of the deposited data

Results flagged for a closer look

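In 15 of 272 groups of 10 values the highest or lowest library stood further from the rest than Dixon's 95% limit allows, and chance alone gives about 1 in 20. They fall on 8 libraries. In HT lithium male 1 the highest values were those of Jade2 (1806 normalised counts, next 1563), Foxo3 (2976), Htr6 (160), Bsn (21561, next 18136) and Syt2 (931). HT lithium female 2 had the highest Fos (1326, next 891) and Ntf3 (29.8). HT lithium female 3 had the highest Ddit3 (433), and HT lithium female 4 the highest Htr5a (951). HT lithium male 3 had the lowest Phf8 (867, next 942). Among fluoxetine libraries, male 4 had the highest Tet3 (3199, next 2556) and Dusp4 (272), female 3 the highest Pik3r1 (5846), and male 1 the highest Aurkb (29.99, next 19.8) and Bub1 (25.7).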

How the results depend on the processing

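The 1226 HT genes became 2319 with the olfactory bulb marker level as a covariate, 698 without the 6 libraries low in it and 177 with the oligodendrocyte level as a covariate (169 shared). The last pair was chosen after seeing the data. The range over the other settings was 970 to 1349, and 772 to 1484 leaving out 1 library. Females gave 206, and 515, 46 and 36 under those 3 settings, 61 with a replicate block, 410 by DESeq2 and 55 to 458 leaving out 1 library. Males gave 337, and 871, 111 and 49, 155 by edgeR and 116 to 623 leaving out 1 library. WT gave 228, and 702 with all 58 libraries, 51 with the block, 754 with the olfactory bulb covariate, 499 by DESeq2 and 102 to 1706 leaving out 1 library. Genotype by drug gave 0, and 4 with quantile normalisation, 1 with a mean of at least 100, 8 with all 58 libraries, 36 with the olfactory bulb and 11 with the striatal covariate, 5 by edgeR, 115 by DESeq2 and 0 to 342 leaving out 1 library. Sex by drug stayed at 0 leaving out any library. Fluoxetine against vehicle gave 2367, and 4663 with the olfactory bulb covariate, 936 by edgeR, 1380 by DESeq2 and 1763 to 2554 leaving out 1 library. Lithium against vehicle gave 2677, and 1201 by edgeR, 1592 by DESeq2 and 1873 to 3066 leaving out 1 library. The cause of these moves was not tested.

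Of 91 named genes past the threshold, 75 kept the call leaving out any library, 58 lost it with the oligodendrocyte covariate and 19 without the low libraries. Some of the 58, Mbp among them, are members of the list whose mean level is that covariate. With the oligodendrocyte covariate Mbp was at 0.0595, Gpr17 at 0.0309, Kmt5b at 0.00187 and Gsk3a at 0.0113 (log2), all with the sign turned. Kmt5b was at 0.0123 with the striatal covariate, 0.00408 by edgeR, 0.00817 by DESeq2 and -0.016 to 0.0183 leaving out 1 library. Gsk3a was at 0.00113 without the low libraries and -0.0317 to 0.0128 leaving out 1 library, and Gsk3b at -0.0179 with quantile normalisation. None of these but Mbp was called. Without single libraries the difference in recovered reads was -2.52 to -1.43 M, in mitochondrial share -0.421 to -0.193 and in the share of the top 10 genes -0.592 to -0.379 percentage points. It passed for recovered reads without HT fluoxetine male 4 (-2.52).

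Same-numbered libraries were not paired. Over 10 pairs the correlation of their deviations ran from -0.216 to 0.36, with 4 over 0.1 and 3 libraries nearest their own number. The replicate block gave 1036 HT genes. Each library held at least 23.5 M recovered reads, and genes under the mean of 10 were too low to be tested.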
